A study of Sus scrofa with 63 samples.

Results

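ISG15, MX1, OAS1, ISG12(A) and IRF7 are 5 genes whose transcripts are induced by interferons. On the porcine array they were measured by 6 of the 23935 probe-sets that are not controls, and the platform annotation named 6765 genes by exactly 1 symbol in all. The genes were chosen by their annotation and by these same data, for a peak at 28 dpn and for levels that varied together across animals within a stage. Their levels by stage and their joint variation are therefore given as a description without a test. Test results are given only for other genes: those of the pathway lists, genes that varied like the 5, and cell type markers.

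The samples were livers of German Landrace offspring whose dams, all gilts, received a gestational high protein (HP) diet. There were 63 arrays with 1 animal each: 16 fetuses of day 94 post conception (94 dpc), 16 piglets of day 1 post natum (1 dpn), 15 piglets of 28 dpn and 16 pigs of 188 dpn. All groups shared breed, tissue and maternal diet, and no array of offspring of the adequate protein group was analysed here, so each difference below is one between ages within HP offspring. Fetuses were taken by Caesarean section from dams of a separate experiment. Newborns were killed by injection. Animals of the later stages were cross-fostered to sows outside the experiment, their males were castrated, and weaning took place at 28 dpn. Animals of 28 and 188 dpn were fasted overnight and killed by exsanguination after electrical stunning. Fetuses and newborns were the lightest and heaviest of their litters, and older animals were of medium growth. Age cannot be told apart from experiment, weight choice, way of killing, fasting and feed. The study used pairs of siblings balanced for sex, and litters could contribute to several postnatal stages. The labels used here do not give pair, mother or sex, so littermates entered the tests as if they were independent animals.

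Interferons are secreted when cells sense foreign nucleic acid. Type I interferons bind the receptor IFNAR1/IFNAR2, the kinases JAK1 and TYK2 phosphorylate STAT2, and STAT2 and IRF9 are parts of a complex that binds the promoters of interferon-stimulated genes. IRF7, itself one of those genes, is a transcription factor for interferon alpha genes and so closes a positive loop. MX1 is a GTPase that blocks viral nucleocapsids, OAS1 makes the second messenger that activates RNase L, ISG15 is a ubiquitin-like protein that is attached to other proteins and removed by USP18, and ISG12(A) is a small mitochondrial protein of the IFI27 family. In liver, Kupffer cells, endothelial cells and hepatocytes all respond to interferons. In the pig annotation MX1 lies next to MX2 and OAS1 next to OAS2, and none of the 5 genes neighbours another of them.

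The deposited values are log2 signals, and a value above background means one above the 95th percentile of the signals that 23 control probe-sets lacking any target gave on the same array. A level is a log2 signal of 1 probe-set. Levels of different probe-sets are not compared with each other, since probe-sets differ in brightness. In whole liver, more cells of a type and more transcript per cell cannot be told apart. Hepatocyte markers had a summed linear signal between 259000 and 574000 on all arrays, the lowest at 188 dpn and the highest at 94 dpc. The median signal of an array averaged 7.38 in fetuses, 7.23 in newborns, 6.83 at 28 dpn and 6.72 at 188 dpn. Fetus 6 stood apart from the other fetuses. Of the probe-sets tested between 94 dpc and 1 dpn, 30.3% had one of their 2 lowest fetal values on its array and 30.0% one of their 2 highest, it had one of the 2 lowest fetal values in all 10 macrophage and all 5 endothelial markers, and the 3′ signal of its actin exceeded the 5′ signal by 4.30, the highest of the stage. The main fetal values are also given without fetuses 5 and 6.

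IRF7 had its highest signal at 28 dpn. In fetuses the lowest, median and highest log2 signals of its brighter probe-set were 4.92, 5.93 and 8.75, and only 4 of 16 were above background. At 1 dpn they were 3.02, 6.87 and 7.81, with 10 of 16 above background. At 28 dpn all 15 animals were above background, between 8.09 and 10.39 with a median of 9.37, and at 188 dpn 14 of 16 were, between 5.32 and 8.66 with a median of 7.62. No piglet of 1 dpn reached the lowest value of 28 dpn, and 1 animal of 188 dpn did. The stage means were 6.15 ± 1.09 (SD, n = 16), 6.31 ± 1.43 (n = 16), 9.30 ± 0.70 (n = 15) and 7.28 ± 0.83 (n = 16). Values of fetuses and newborns lie close to background, so the difference of 2.99 (SE 0.40) between 1 and 28 dpn is a rough measure. A second IRF7 probe-set was above background on 1, 6, 8 and 3 arrays of the 4 stages. Its mean also was highest at 28 dpn, with 5.53 ± 1.31 (SD, n = 15), but it differed from 1 dpn by 1.29 (SE 0.55) and its arrays overlapped widely.

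MX1 had fetal log2 signals from 6.20 to 11.32 with a median of 7.99. At 1 dpn they ran from 7.19 to 11.25 around 9.52, at 28 dpn from 10.51 to 13.12 around 11.91, and at 188 dpn from 8.14 to 10.85 around 9.79. Animals of 28 dpn were the highest as a group, though 4 piglets of 1 dpn, 2 fetuses and 2 animals of 188 dpn lay above the lowest of them. The mean difference was 2.32 (SE 0.36) from 1 to 28 dpn, a 4.98-fold higher geometric mean, and -2.26 (SE 0.29) from 28 to 188 dpn. The means of 1 and 188 dpn, 9.53 ± 1.14 (SD, n = 16) and 9.59 ± 0.74 (SD, n = 16), were within their spread of each other.

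OAS1 showed the smallest contrast between 28 and 188 dpn. Its log2 signals ran from 1.63 to 10.78 with a median of 8.64 in fetuses, from 7.41 to 9.94 around 8.91 at 1 dpn, from 9.39 to 12.05 around 10.60 at 28 dpn, and from 8.66 to 10.62 around 9.72 at 188 dpn. The difference was -0.95 (SE 0.25) between the last stages, and 12 of 16 animals of 188 dpn were above the lowest animal of 28 dpn. Fetuses 5 and 6 had values of 1.63 and 2.54, far below background, while fetuses 7 and 8 had 5.93 and 5.49 and the other 12 lay at 7.33 or above. Without fetuses 5 and 6, the difference from 94 dpc to 1 dpn was 0.41 in place of 1.19 (SE 0.66). Fetus 5 had an ISG15 of 8.12 and an MX1 of 8.01, both near the fetal median, while its IRF7 of 5.16 was the second lowest of the stage and its ISG12(A) was 9.42.

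ISG15 had fetal log2 signals between 4.78 and 11.44 with a median of 8.12. At 1 dpn they lay between 7.63 and 11.32 (median 10.03), at 28 dpn between 11.52 and 14.57 (median 13.23), and at 188 dpn between 9.92 and 11.47 (median 10.56). Every animal of 28 dpn was above every animal of the other stages. The gap was 0.05 to the highest animal of 188 dpn, 0.08 to the highest fetus and 0.20 to the highest newborn. Means were 8.19 ± 1.50 (SD, n = 16), 9.77 ± 1.22 (n = 16), 13.07 ± 0.97 (n = 15) and 10.63 ± 0.48 (n = 16). This was 9.83-fold from 1 to 28 dpn and 5.43-fold from 188 to 28 dpn, in geometric means. The means of 1 and 188 dpn differed by less than 1 SD.

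ISG12(A) had the highest step of the 5 from 1 to 28 dpn. Its log2 signals lay between 9.05 and 14.08 (median 9.76) at 94 dpc, between 8.90 and 11.95 (median 10.41) at 1 dpn, between 13.18 and 14.96 (median 14.25) at 28 dpn, and between 11.35 and 13.11 (median 12.01) at 188 dpn. Animals of 28 dpn overlapped with none of 1 or 188 dpn, and fetus 13, at 14.08, was the only fetus within their range. The difference was 3.85 (SE 0.27) from 1 to 28 dpn, or 14.4-fold, and -2.10 (SE 0.19) from 28 to 188 dpn. In contrast to ISG15 and MX1, its mean at 94 dpc, 10.28 ± 1.39 (SD, n = 16), was close to that at 1 dpn, 10.36 ± 0.94 (SD, n = 16). The difference of 0.08 (SE 0.42) was 0.55 without fetuses 13 and 14 and -0.07 without fetuses 5 and 6. Its mean at 188 dpn, 12.11 ± 0.53 (SD, n = 16), was above both by more than 1 SD.

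**Figure D1:**
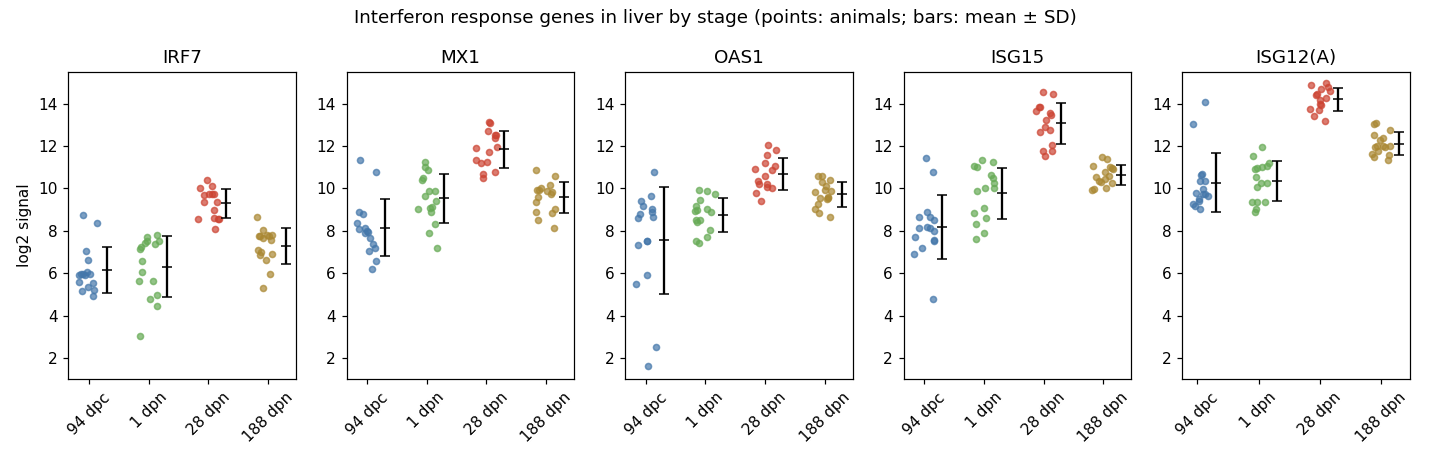
Log2 signal of IRF7 (brighter probe-set), MX1, OAS1, ISG15 and ISG12(A) in liver by stage. Points are animals and black bars give the mean and SD of 16, 16, 15 and 16 animals. All 5 means were highest at 28 dpn, and the 2 highest fetuses of ISG12(A), at 14.08 and 13.04, were fetuses 13 and 14.

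In all 5 genes the mean was highest at 28 dpn, and this also held with quantile normalization and with arrays shifted to a common median. Between 1 and 28 dpn, ISG15, ISG12(A) and IRF7 did not overlap, where 4.95% of the 13078 tested probe-sets were higher at 28 dpn without overlap. Between 28 and 188 dpn, ISG15 and ISG12(A) did not overlap, against 0.862% of 12418. The genes had been selected on these contrasts, so the shares are given for orientation alone. The order of the other stages was not shared. Fetal and newborn means differed by less than 1 SD for OAS1, ISG12(A) and IRF7 and by more than 1 SD for ISG15 and MX1, with 1.58 (SE 0.48) and 1.38 (SE 0.44). Without fetuses 5 and 6 these were 1.33 and 1.26, and without fetuses 13 and 14 they were 2.00 and 1.80.

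The spread within a stage differed between stages and between genes. The SD of ISG15 was 1.50, 1.22, 0.97 and 0.48 from 94 dpc to 188 dpn, whereas that of IRF7 was 1.09, 1.43, 0.70 and 0.83, widest in newborns and narrowest at 28 dpn. The fetal SDs depended on fetuses 13 and 14. Without them the SD was 0.53 in place of 1.39 for ISG12(A), 0.57 in place of 1.09 for IRF7, 0.78 in place of 1.35 for MX1 and 1.04 in place of 1.50 for ISG15, all below the SDs of newborns. That of OAS1 was 2.47 without fetuses 13 and 14 and 1.44 without fetuses 5 and 6, in place of 2.53. The median SD of the 12022 probe-sets that exceeded the array median in at least 50% of the fetuses was 0.33, and the SDs of the 5 genes lay between percentiles 98.6 and 99.9 of these. The percentiles ran from 93.4 to 99.2 at 1 dpn, from 88.7 to 98.7 at 28 dpn, and from 75 to 95.9 at 188 dpn. ISG15 had the lowest of these at 188 dpn and ISG12(A) at 28 dpn.

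The 5 genes varied together across animals. As the selection used this, correlations are given without p-values. They concern 10 pairs of genes per stage, whose points share the array and its scaling. ISG15 and MX1 were the closest pair, with Pearson's r of 0.90, 0.90, 0.96 and 0.82 from 94 dpc to 188 dpn (Spearman's rho 0.88, 0.88, 0.91 and 0.82), and 0.89, 0.84, 0.93 and 0.71 without the 2 animals farthest from the median of ISG15. At 94 dpc these 2 were fetuses 6 and 13, and fetus 14 stayed in. Without fetuses 13 and 14, no fetal pair lacking OAS1 had an r above 0.72. At 28 dpn IRF7 followed both, with r = 0.92 for ISG15 and 0.93 for MX1. OAS1 was the least tied to the others at 1 and 28 dpn, with r from 0.35 to 0.62 and from 0.45 to 0.52. At 188 dpn its r lay between 0.19 and 0.61, and that of IRF7 between 0.19 and 0.49. Over all 10 pairs the median r was 0.68 in fetuses, 0.70 in newborns, 0.77 at 28 dpn and 0.42 at 188 dpn.

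The fetal correlations rested in part on fetuses 13 and 14. Of the 6 pairs without OAS1, the median r at 94 dpc was 0.80 with all 16 fetuses and 0.18 without these 2, with pairs from -0.36 to 0.72. Without fetuses 5 and 6 it was 0.81, and without fetus 6 alone 0.82. Left-out animals were chosen after the data were seen.

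Each animal was summarised by the mean, over the 5 genes, of its log2 difference from its stage mean. Fetus 13 stood at 3.21 and fetus 14 at 2.46, while the next fetus, number 9, stood at 0.47. Fetus 13 was the highest of 16 for all 5 genes and fetus 14 the second for all 5. Whether these 2, or fetuses 5 and 6, came from 1 litter is not given in the labels, and siblings would not be independent observations. Their log2 signals were 11.44 and 10.79 for ISG15, 11.32 and 10.76 for MX1, 10.78 and 9.64 for OAS1, 14.08 and 13.04 for ISG12(A), and 8.75 and 8.39 for IRF7. Without them the fetal mean of ISG12(A) was 9.81 ± 0.53 (SD, n = 14) in place of 10.28 ± 1.39, and that of ISG15 7.77 ± 1.04 (SD, n = 14). The ISG15 signal of fetus 13 was above that of the highest newborn, 11.32, and that of fetus 14 below it, while the ISG12(A) signals of both were above the highest newborn, 11.95. At the other end, fetus 6 stood at -2.28 and fetus 5 at -1.60.

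Newborns were spread evenly from -1.85 (piglet 27) and -1.61 (piglet 25) to 1.25 (piglet 31) and 1.33 (piglet 32). Piglet 27 had an IRF7 signal of 3.02, an ISG15 of 7.92 and an MX1 of 7.91, and piglet 32 had 7.72, 11.01 and 11.25. At 28 dpn the range was from -1.15 (animal 38) to 1.07 and 1.13 (animals 37 and 46). Animal 38 was the lowest of its stage for ISG15, MX1, ISG12(A) and IRF7, with ISG15 at 11.52, and animal 46 had an ISG15 of 14.57. At 188 dpn the range was narrow, from -0.70 (animal 62) to 0.67 (animal 60). Pigs 62 and 60 had ISG15 signals of 9.92 and 11.40.

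**Figure D2:**
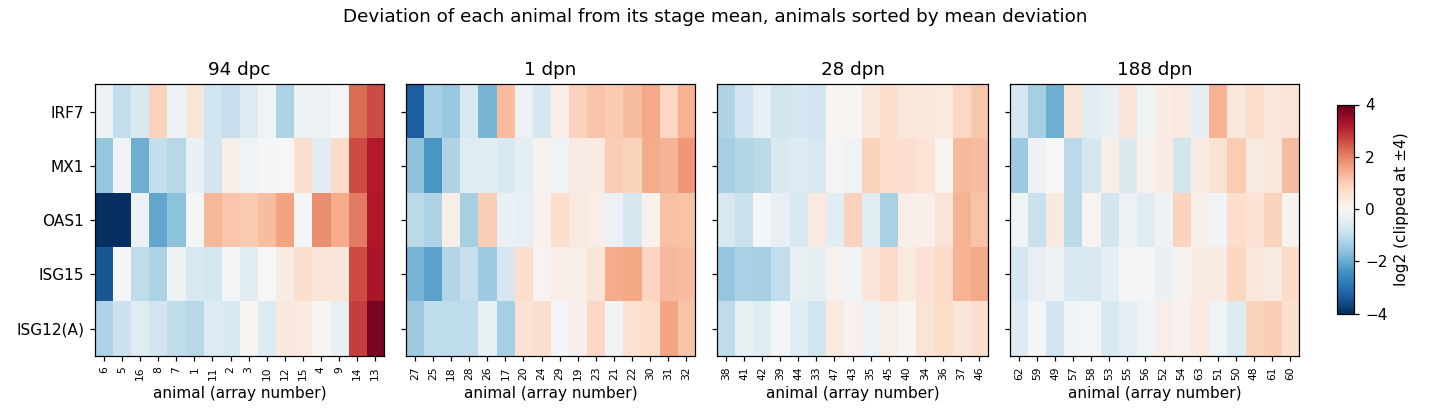
Log2 difference of each animal from the mean of its stage for the 5 genes, in colour (red above, blue below, clipped at 4 in either direction), with animals of a stage sorted by their mean over the 5 genes and labelled by array number. Fetuses 14 and 13 form red columns in all 5 genes, with means of 2.46 and 3.21, and colours are palest at 188 dpn.

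The other genes of the pathway show whether the pattern reached beyond the chosen genes. The lists held 68 other interferon pathway genes on the array. Of these, 53, 57 and 57 had a level high enough to be tested from 94 dpc to 1 dpn (period I), 1 to 28 dpn (period II) and 28 to 188 dpn (period III). Tests were limited to probe-sets that exceeded the array median in at least 50% of the animals of either stage. A call needed an adjusted p under 0.05 (Benjamini-Hochberg over all tested probe-sets) in limma's moderated comparison. In period I, 22 of 53 rose and 11 fell, where 22.9% of all tested probe-sets rose and 34.0% fell. In period II, 36 of 57 rose and 12 fell, against 28.8% and 42.9% of all. In period III none rose and 41 of 57 fell, against 12.3% and 22.5% of all. The level filter could admit a gene through 1 stage alone, which favours a change toward that stage. MX2, CNP and DTX3L, not tested in period I, entered period II through 28 dpn alone. TRIM26, not tested in period III, entered period II through 1 dpn alone. With no level filter, 35 pathway genes rose and 14 fell in period II. Taken by gene, 1 probe-set each, 1465 of 5225 genes with 1 symbol rose and 1613 fell in period I. In period II 1827 of 5354 rose and 1971 fell, and in period III 714 of 5235 rose and 1390 fell. The counts by list below are to be read beside these. At an unadjusted p under 0.05, 0 of the 57 rose in period III with limma, and the Wilcoxon test also called 0. The median change of the tested genes was 0.38, 0.61 and -0.64 (log2), and -0.03, -0.02 and -0.08 over all genes with 1 symbol. Of 59 pathway genes tested in any period, 37 (62.7%) had their highest stage mean at 28 dpn, as had 21.0% of all 5500 genes tested.

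Of the ligands, only the probe-set of IFNA1 was bright enough for a test, and it stands for a family of near-identical genes. Its log2 signals were 7.06 ± 0.77 (SD, n = 16), 7.35 ± 0.60 (n = 16), 7.39 ± 0.47 (n = 15) and 7.21 ± 0.29 (n = 16), and no period passed (adjusted p = 0.295, 0.867 and 0.344 with limma). IFNB1 was above background on 1 fetal array and on none after birth. IFNG was above background on 6, 4, 8 and 5 arrays of the 4 stages, and IFN-DELTA-1 on 7, 6, 7 and 7. The levels of these 3 were too low for a test.

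Receptor chains took courses of their own. IFNAR1 rose in period I (0.98, SE 0.17, adjusted p = 1.12e-05) and fell by 1.75 (SE 0.17, adjusted p = 5.99e-11) in period II, when the 5 genes stood highest. IFNAR2 rose by 0.56 (SE 0.09, adjusted p = 2.31e-06) in period I and was 8.66 ± 0.23 (SD, n = 16) at 1 dpn and 8.75 ± 0.29 (SD, n = 15) at 28 dpn. TYK2, the kinase bound to IFNAR1, fell in period I by 0.95 (SE 0.08) and rose in period II by 1.00 (SE 0.08, adjusted p = 1.17e-12), in the direction opposite to IFNAR1 in both. JAK1 changed by at most 0.31 in any period. IFNGR1, the binding chain for interferon gamma, rose in period I by 0.64 (SE 0.13) and fell in period II by 0.43 (SE 0.13), and the latter no longer passed when arrays were centred on their median tested probe-set (adjusted p = 0.151).

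IRF9, the DNA-binding partner of STAT2, rose in both early periods, by 0.81 (SE 0.22, adjusted p = 0.00186) and 1.29 (SE 0.19, adjusted p = 3.29e-07), and fell in period III by 0.52 (SE 0.12, adjusted p = 0.00128). STAT2 fell by 0.44 (SE 0.13) in period I, rose in period II (0.31, SE 0.13, adjusted p = 0.0393) and fell by 0.39 (SE 0.09) in period III. Its rise did not pass without piglets 25, 27 and 28 (adjusted p = 0.155). Of the 8 tested genes of receptors and relay, 3 rose and 3 fell in period II. This was near the share over all genes with 1 symbol, of which 1827 of 5354 rose and 1971 fell. In period III 5 of the 8 fell and 3 did not pass, where 1390 of 5235 genes fell.

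All 4 other interferon regulatory factors rose in period II. IRF8, a factor of macrophages and dendritic cells, rose most, by 2.34 (SE 0.15, adjusted p = 1e-14), from 7.82 ± 0.49 (SD, n = 16) to 10.16 ± 0.34 (SD, n = 15). IRF1 rose by 0.99 (SE 0.18) in period I and by 1.12 (SE 0.17, adjusted p = 5e-07) in period II. IRF3, the constitutive partner of IRF7 in interferon induction, rose in period II (0.50, SE 0.09, adjusted p = 6.5e-06) and was 9.76 ± 0.31 (SD, n = 16) and 9.78 ± 0.26 (SD, n = 16) before. IRF2 had probe-sets called in opposite directions in period II, and its rise of 0.49 is uncertain. In period III, IRF1 fell by 0.57 (SE 0.10) and IRF8 by 0.42 (SE 0.12).

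Among sensors and adaptors, ZBP1, a sensor of Z-form nucleic acid that is itself induced by interferon, rose in period II by 1.77 (SE 0.27, adjusted p = 9.53e-07) and fell in period III by 1.67 (SE 0.21, adjusted p = 1.53e-07). DDX58, which encodes the RNA sensor RIG-I, increased in period I (0.75, SE 0.23, adjusted p = 0.00587), did not pass in period II (0.23, SE 0.28) and fell in period III by 1.02 (SE 0.26). Of the 5 tested genes of this list, 1 rose and 3 fell in period II, where 1827 of 5354 genes with 1 symbol rose and 1971 fell. The 3 that fell encode signalling proteins behind the sensors. TBK1, the kinase of IRF3, fell by 1.10 (SE 0.15, adjusted p = 1.38e-07), MYD88, the adaptor of Toll-like receptors, by 0.83 (SE 0.14), and MAVS, the adaptor of RIG-I, by 0.44 (SE 0.12). The fall of MAVS did not pass with limma after quantile normalization (adjusted p = 0.496) or with arrays centred on their median tested probe-set (adjusted p = 0.109).

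Of the antiviral effectors, 11 rose, 3 fell and 8 did not pass of 22 tested in period I. In period II, 19 rose, 4 fell and 3 did not pass of 26. In period III, 22 fell, none rose and 3 did not pass of 25. The largest increases of period I were those of PML, the organiser of nuclear bodies, by 2.40 (SE 0.37, adjusted p = 1.85e-06), GBP1, a guanylate-binding GTPase, by 1.78 (SE 0.47), ISG20, an RNA exonuclease, by 1.66 (SE 0.43), and EIF2AK2, the RNA-activated kinase PKR, by 0.95 (SE 0.19). PML was above background on 4 of 16 fetal arrays and ISG20 on 5, so that their increases are measured from a level near background and their sizes are uncertain.

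In period II, CNP, a phosphodiesterase of cyclic nucleotides, rose by 2.29 (SE 0.32, adjusted p = 1.49e-07), from a level above background on only 7 of 16 newborn arrays, which makes the size uncertain, and PARP12, an antiviral ADP-ribosyltransferase, by 1.82 (SE 0.20, adjusted p = 1.05e-09). TRIM26, a ubiquitin ligase, and EIF2AK2 had the largest decreases among effectors. TRIM26 fell by 2.49 (SE 0.20, adjusted p = 1.33e-12) and EIF2AK2 fell by 1.60 (SE 0.23, adjusted p = 3.57e-07), and PNPT1 and PLSCR1 fell too. IFIT3, a protein that binds viral RNA together with IFIT1, rose by 1.81 (SE 0.25) and RSAD2, the radical enzyme viperin, by 1.77 (SE 0.37). MX2, the neighbour of MX1, was measured at low levels and entered the test of period II through 28 dpn alone. It rose in period II by 0.53 (SE 0.18, adjusted p = 0.00939) and fell in period III by 0.81 (SE 0.21, adjusted p = 0.00277), and without piglets 25, 27 and 28 the rise did not pass (adjusted p = 0.0526).

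Among effectors the largest falls of period III were those of ISG20 with 1.93 (SE 0.22, adjusted p = 2.41e-08), GBP1 with 1.80 (SE 0.25), DTX3L, a partner of PARP9, with 1.73 (SE 0.36) and RSAD2 with 1.63 (SE 0.28). Only 8 of the 16 oldest animals had DTX3L above background, and its decrease is therefore a rough value. TNFSF10, the death ligand TRAIL, was the tested effector with a higher mean at 188 dpn, 8.85 ± 0.65 (SD, n = 16) against 8.55 ± 0.62 (SD, n = 15) at 28 dpn (adjusted p = 0.308).

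USP18, the protease that removes ISG15 from its targets and dampens the receptor, rose in period II (2.05, SE 0.26, adjusted p = 3.24e-08) and fell by 1.83 (SE 0.21, adjusted p = 2.13e-08) in period III, with a level of 11.03 ± 0.61 (SD, n = 15) at 28 dpn. In period I its change of 0.63 (SE 0.31) did not pass. PIAS1, a SUMO ligase, fell in all 3 periods, by 0.35, 0.56 and 0.39. SOCS3 was above background on at most 4 arrays of a stage.

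Genes of antigen processing and interferon gamma targets rose in 7 and fell in 1 of 10 in period II and fell in 8 of 11 in period III. CXCL9, a chemokine induced by interferon gamma, fell in period I by 1.05 (SE 0.28) and rose in period II by 2.59 (SE 0.29, adjusted p = 2.1e-09). TAP1, a subunit of the peptide transporter, rose by 1.79 (SE 0.25), PSME1, a subunit of the proteasome activator, by 1.16 (SE 0.10), and PSMB8, a subunit of the immunoproteasome, by 1.09 (SE 0.29). PSMB10, another such subunit, rose most in period I, by 1.62 (SE 0.20, adjusted p = 3.75e-08), and fell in period III by 1.21 (SE 0.12). B2M, the light chain of class I molecules, has many probe-sets, and those called did not share a direction.

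**Figure D3:**
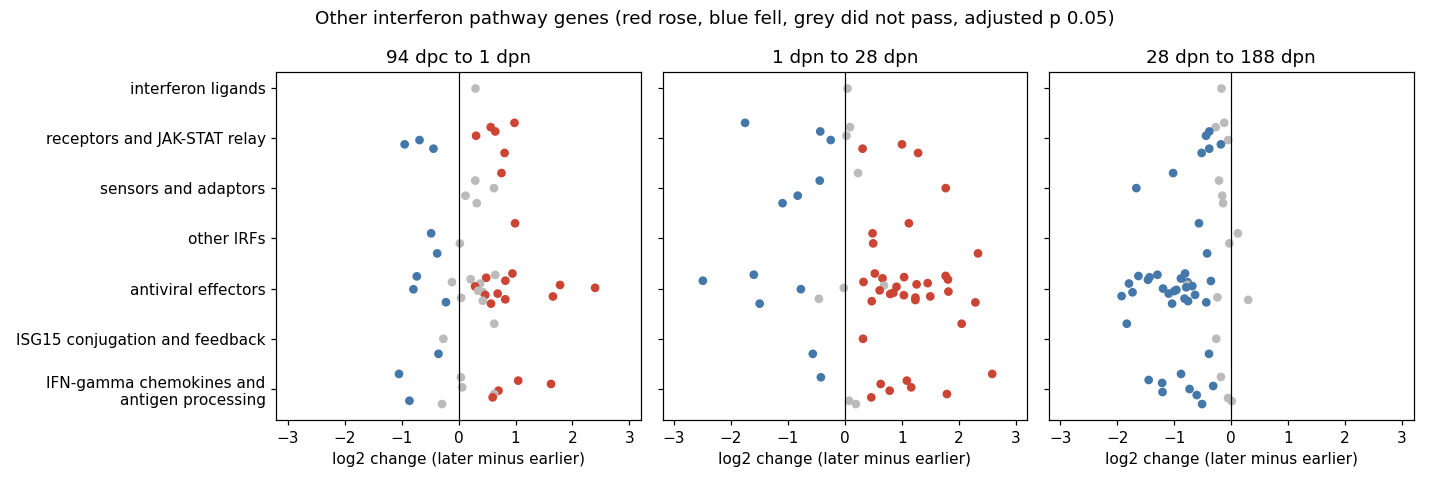
Log2 change of the other interferon pathway genes in the 3 periods, by list, with 1 point per tested gene. Red points rose and blue points fell at an adjusted p under 0.05, grey points did not pass. Red points lead in the middle panel (36 of 57), and the right panel holds 41 blue points and no red one.

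Genes that varied like the 5 genes within stages were sought among 5495 others, by Pearson's r over the 63 animals with the mean of the 5 genes, after the stage means were subtracted. The median r over all these genes was 0.04 and the 95th percentile 0.39. The 15 highest were IFIT3 (r = 0.86), USP18 (0.86), LOC733579 (0.85), PARP12 (0.82), CASP1 (0.80), IFI44L (0.79), IRF9 (0.78), LGALS9 (0.76), RSAD2 (0.75), TAP1 (0.74), ZBP1 (0.71), PSME1 (0.71), GM2A (0.71), IFI35 (0.70) and SLA-DMB (0.70). Of these, 11 were in the pathway lists. CASP1, the protease that activates interleukin-1 beta, GM2A, a lysosomal lipid-binding protein, SLA-DMB, a chain of the class II peptide editor, and LOC733579 were not. Without the 2 animals farthest from the median, fetuses 13 and 14, these r lay between 0.59 (PSME1) and 0.84 (IFIT3).

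Likeness was weaker at 188 dpn. IFIT3, PARP12, USP18 and LOC733579 kept r of 0.72 or more at each stage, with 0.83 for IFIT3 and 0.79 for PARP12 at 188 dpn. CASP1 had r = 0.87, 0.89, 0.64 and 0.23 from 94 dpc to 188 dpn, and GM2A 0.77, 0.90, 0.69 and -0.36. IRF9 had 0.89 and 0.88 in fetuses and newborns and 0.35 at 28 dpn. Since subtraction of stage means removes the stage pattern, the changes between stages are a separate readout of these genes. In period II 14 of the 15 rose and LGALS9 did not pass, and in period III all 15 fell. With limma on the mean over its probe-sets, the rise of IFI44L did not pass (0.305, adjusted p = 0.296). The fall of PSME1 did not pass with limma after centring (adjusted p = 0.107). In period I 4 rose and 11 did not pass. Of all genes with 1 symbol, 1465 of 5225 rose in period I and 1827 of 5354 in period II. In period III 1390 of 5235 fell. The 11 genes in the pathway lists are already part of the counts given above. CASP1 rose by 1.68 (SE 0.24) and fell by 1.69 (SE 0.13, adjusted p = 1.01e-11), and GM2A rose by 2.11 (SE 0.23, adjusted p = 1.71e-09) and fell by 1.06 (SE 0.13). LOC733579 rose by 1.32 (SE 0.20) and fell by 1.25 (SE 0.17), to 9.97 ± 0.47 (SD, n = 16).

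Other pathway genes had a low r. Over the 59 pathway genes the median r was 0.34. IFNA1 and IFNAR2 had r near 0, with -0.01 and 0.00, and TBK1 had -0.26. CNP and SP110, which rose in period II, had 0.07 and 0.05, and MX2 0.16.

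**Figure D4:**
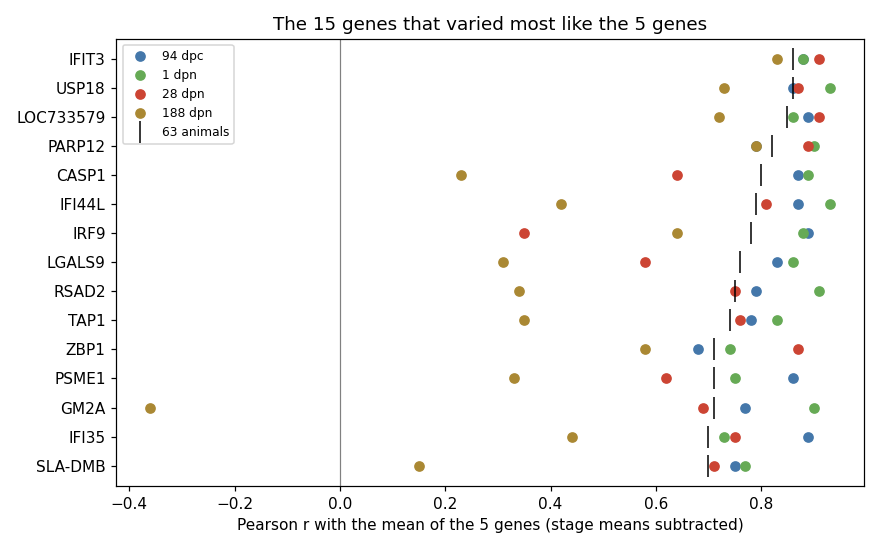
Pearson's r of the 15 genes most like the 5 interferon response genes with their mean, after subtraction of stage means, over 63 animals (black bars) and within each stage (coloured points). At 188 dpn r is below that of the other stages for most genes and reaches -0.36 for GM2A.

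Fetuses 13 and 14 also stood out in the other pathway genes. Of 22 tested antiviral effectors, fetus 13 had one of the 2 highest fetal values in 17 (77.3%) and fetus 14 in 11 (50.0%), where over all 12839 tested probe-sets the shares were 16.6% and 11.2%. Of 10 genes of antigen processing and interferon gamma targets, they were among the 2 highest in 8 and 6. IFIT3 was 10.24 and 9.67, against a fetal mean of 8.55 ± 0.76 (SD, n = 16). LGALS9, a galectin, was 10.60 and 9.51, RSAD2 9.16 and 7.53, and IRF9 9.74 and 9.08. ZBP1 was 8.65 in fetus 13. Fetus 13 also had one of the 2 highest fetal values in all 5 markers of neutrophils and myeloid precursors and in 6 of 10 macrophage markers, and fetus 14 in 0 of 5 and 1 of 10. For acute phase genes this held in 3 and 2 of 9. JCHAIN, a gene of plasma cells, was highest in fetus 13 and second in fetus 14, at 2.72 and 1.57 above the fetal mean. CD3D, of T cells, was 1.37 and 1.51 above it, again the 2 highest values. Other markers of T and NK cells were mixed. Ranked from the highest fetus, fetuses 13 and 14 were 1 and 4 for CD8A and 7 and 9 for CD8B. They were 8 and 3 for LCK, and 1 and 16 for GNLY. The erythroid genes AHSP and ALAS2 were lowest in fetus 13 and second lowest in fetus 14. Over all 16 fetuses JCHAIN had r = 0.74 with the mean of the 5 genes and the mean of 5 markers of T and NK cells had 0.67, which became -0.18 and 0.38 without fetuses 13 and 14. The actin 3′ to 5′ difference of these fetuses, 2.14 and 2.23, was within the fetal range. The part of these measures in the levels of the 5 genes was not tested.

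By their median summed signal, markers of macrophages, endothelial cells and T and NK cells stood highest at 28 dpn, as did the 5 genes. Those of neutrophils and myeloid precursors, erythroid precursors and hepatocytes stood highest at 94 dpc, and those of B and plasma cells at 188 dpn. The summed linear signal of 10 macrophage markers ran from 3810 (fetus 6) to 31300 at 94 dpc, from 20500 to 48200 at 1 dpn, from 59400 to 79900 at 28 dpn and from 37500 to 63400 at 188 dpn. Of the 10, 7 rose in period II and none fell, where 1827 of 5354 genes with 1 symbol rose. All 10 fell in period III, where 1390 of 5235 genes did. Within stages, their mean had r = 0.55, 0.65, 0.64 and 0.21 with the mean of the 5 genes, and the mean of 26 other antiviral effectors had 0.75, 0.92, 0.85 and 0.40. At 94 dpc these became 0.70 and 0.29 without fetuses 13 and 14, and 0.56 and 0.85 without fetuses 5 and 6. The median sum of 5 endothelial markers was 4080, 4070, 7110 and 5210 from 94 dpc to 188 dpn, and 2 rose and 2 fell in period II. Their mean had r = 0.49, 0.28, 0.26 and 0.72 with the 5 genes, and the first of these was 0.15 without fetuses 5 and 6. At 188 dpn the value was above those of macrophage markers and effectors. Markers of T and NK cells had summed signals of 549 to 1520, 420 to 1070, 1440 to 3930 and 1140 to 3270, and 4 of 5 tested rose in period II. Of 11 on the array, 5 were bright enough for a test in any period and only 1 in period I. The others of the 5 thus entered period II through 28 dpn alone, which favours a rise. The mean of the 5 markers had r = 0.67, 0.01, 0.14 and 0.54 with the 5 genes. Of markers of plasmacytoid dendritic cells, the main producers of type I interferon, TCF4 and SPIB were on the array and neither was bright enough for a test. The part of cell composition was not tested.

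Signs of RNA quality and labelling also differed between stages. The 3′ signal of actin exceeded the 5′ signal by 2.44, 1.59, 3.66 and 4.10 on average, and that of 2 bacterial RNAs added before labelling by 0.86, 1.89, 2.70 and 2.10. Within stages the actin difference had r = -0.55, 0.27, -0.67 and -0.33 with the mean of the 5 genes, and at 94 dpc -0.38 without fetuses 5 and 6 and -0.74 without fetuses 13 and 14. At 28 dpn the actin difference was 3.15 to 3.50 on arrays 33 to 37, 46 and 47, and 3.70 to 4.02 on arrays 38 to 45. With the difference of the added RNAs as a covariate, 33 other pathway genes rose in period II in place of 36. In period III 41 fell as before. The actin difference was not used as a covariate. The part of either difference in the levels of the 5 genes was not tested.

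**Figure D5:**
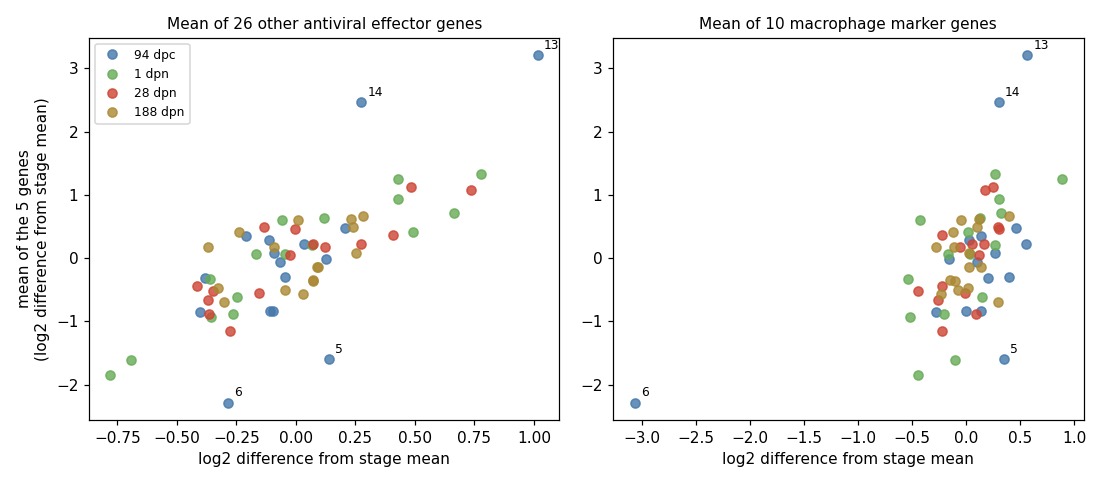
Mean of the 5 interferon response genes per animal (vertical axis) against the mean of 26 other antiviral effectors (left) and of 10 macrophage markers (right), all as log2 differences from the stage mean, coloured by stage. Numbers mark fetuses 5, 6, 13 and 14. Fetus 6 lies far left among macrophage markers, and fetus 13 is highest on the vertical axis at 3.21.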

How the data were processed

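Liver RNA of 63 HP offspring had been hybridised to Affymetrix porcine arrays, 1 per animal, and samples were grouped by the stage in the labels. The authors deposited log2 signals of 24123 probe-sets. The submitters' processing notes name GCOS 1.1.1. The values show a signal scaled to a trimmed mean of 500 per array (2% trimmed at each end), with no further normalization between arrays. Arrays give no read depth, so their number and the background limit precision.

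The 188 control probe-sets were not used. By the platform annotation, 10069 of the others had 1 symbol, 198 several and 13668 none. For a gene with several probe-sets, the one of the highest mean was used. For each period the arrays of both stages entered a linear model in limma 3.58.1 under R 4.3.3 (lmFit and eBayes, two-sided), with Benjamini-Hochberg adjustment over all tested probe-sets. The fit was tested on simulated data. Descriptions used Python 3.11.15, pandas 2.3.3 and scipy 1.17.1.

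The 5 genes, the pathway lists and the marker lists were chosen with earlier results of these data known. The genes named follow a rule: the 5 genes; in each list and period up to 4 called genes with the largest changes; a set of key genes of the pathway wherever measured; and the 15 genes most like the 5. Some further list members are given beside them, picked with their values in view. The alternatives tried were other level filters, quantile normalization, centring, all arrays in 1 fit, a trend, a Wilcoxon test and the mean over probe-sets. Leaving out fetuses 5, 6, 13 and 14 or piglets 25, 27 and 28, and the labelling covariate, were chosen after seeing the data.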

Additional observations from a re-analysis of the deposited data

How the results depend on the processing

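Counts of other pathway genes stayed within 1.5 times the main count under all alternatives. From 94 dpc to 1 dpn between 15 and 29 rose and between 8 and 11 fell, the 29 without fetuses 13 and 14 and the 15 with the filter at the 75th percentile, which tests fewer genes. From 1 to 28 dpn between 29 and 38 rose and between 8 and 14 fell. From 28 to 188 dpn none rose under any alternative and between 30 and 43 fell. Differences between stages of the 5 genes stayed within 1 SD of their main value, except that the other IRF7 probe-set gave 1.29 between 1 and 28 dpn, with most of its values below background. The difference of IRF7 between 94 dpc and 1 dpn was 0.94 with medians in place of means and 0.16 with means. With the mean over the probe-sets of a gene, the changes of IRF2 and SOCS1 from 1 to 28 dpn turned to -0.15 and -0.001 and did not pass. The single gene results cover only genes called in the main fit and still tested under the alternative, and the alternatives reuse the same arrays. Of these 1177 results, 1116 still passed in the same direction and 59 kept their direction but no longer passed. The other 2, those of IRF2 and SOCS1, changed sign and did not pass. The 15 genes most like the 5 shared between 11 and 14 with those found under other settings.

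Scaling moved the balance over all probe-sets. Of all calls, 40.2%, 40.1% and 35.4% were increases in the 3 periods, and 50.9%, 54.6% and 56.2% after centring on the median. The median change of all tested probe-sets moved from -0.10, -0.14 and -0.07 to 0.01, 0.08 and 0.04. No paired analysis was possible because the labels give no mother or litter and no array number occurs in more than 1 stage.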
